A study of Mus musculus with 40 samples.

Results

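The circadian clock genes described here were 10 genes, Arntl, Clock, Npas2, Per1, Per2, Per3, Cry1, Nr1d1, Nr1d2, and Dbp, each taken by its symbol from the gene names of both expression tables. All 10 were found among the 17402 genes listed for the first experiment and the 15399 genes listed for the second. Messenger RNA from mouse aorta was sequenced in 40 libraries, each made from 3 pooled aortas of male mice after removal of the perivascular tissue and the adventitia. By the labels of the genotype experiment (22 libraries), mice carried a floxed calcineurin B1 gene (CnB1-flox) and were either negative (Cn-Ctl) or positive (SM-Cn-/-) for Myh11-CreERT2, a tamoxifen-inducible recombinase driven by the smooth muscle myosin promoter. The study's methods also count mice with the recombinase and without the floxed gene among Cn-Ctl animals, and the labels show none of these here. All of them received tamoxifen, 1 mg daily for 5 days at 10 to 12 weeks of age, and were used 6 weeks later, untreated (basal) or after 2, 6, or 24 h of angiotensin-II (Ang-II) from an osmotic minipump at 1 μg/kg/min. In the CsA experiment (18 libraries), wild-type C57BL/6J mice (WT) without a first pump, and C57BL/6J mice that had carried a pump with the calcineurin inhibitor cyclosporin A (CsA) for 5 days, were untreated or received Ang-II for 2 or 24 h. By the study's methods, control mice had the surgery but received no pump. Ang-II and its pump therefore cannot be told apart in the comparisons with untreated mice. Each group had 3 libraries, apart from the untreated and the 24 h Cn-Ctl groups with 2. Cn-Ctl, WT, and CsA mice under Ang-II were kept when their systolic pressure passed 130 mmHg. Treated SM-Cn-/- mice were kept without a pressure threshold. By the study's methods, SM-Cn-/- mice in which the CnB1 deletion could not be shown were removed. The same held for CsA mice in which blocked dephosphorylation of NFAT, a calcineurin substrate, could not be shown in the thymus. The Cre transgene restricts that experiment to males, and the hour of the day at which the aortas were taken is not in the labels, so that it cannot be told apart from treatment, time under Ang-II, or group in any comparison below.

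The circadian clock is a feedback loop that runs in nearly every cell, smooth muscle included. Arntl (also called Bmal1) pairs with Clock, or with its relative Npas2, to switch on the Per and Cry genes, whose proteins return to the nucleus and block that pair. The nuclear receptors Nr1d1 and Nr1d2 (Rev-erb alpha and beta) are driven by the same pair and repress Arntl, and Dbp, a transcription factor driven by it too, acts on genes with a D-box, so that Arntl RNA and Dbp RNA peak at opposite times of the day. Blood pressure and vascular tone follow a daily rhythm, and glucocorticoid and calcium or cAMP signals can induce Per1 within hours.

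Short DNA letters of the kind that these factors can bind were looked for in the promoters of the genes. RefSeq windows of the 250 bases before a transcription start (GRCm38.p6) matched 9 of the 10 genes in 13 windows, and Per2 had no entry. Both strands were searched for the E-box CACGTG bound by the Arntl pair, the D-box TTATGTAA bound by Dbp, the cAMP response element TGACGTCA, and AGGTCA, the core of the element bound by the Rev-erb receptors. Among all 32851 windows, these were present in 6.02%, 0.819%, 1.55%, and 14% respectively. The 4 windows below are shown because each held a match, which is given in capitals, and no matches overlapped. A match is a description of the letters in the window and not evidence of binding.
Per3: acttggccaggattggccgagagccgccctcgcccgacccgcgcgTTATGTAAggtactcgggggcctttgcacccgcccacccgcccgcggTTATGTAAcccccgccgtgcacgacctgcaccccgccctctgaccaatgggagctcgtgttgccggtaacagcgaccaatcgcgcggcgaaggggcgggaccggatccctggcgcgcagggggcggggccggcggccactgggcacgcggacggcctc
Per1: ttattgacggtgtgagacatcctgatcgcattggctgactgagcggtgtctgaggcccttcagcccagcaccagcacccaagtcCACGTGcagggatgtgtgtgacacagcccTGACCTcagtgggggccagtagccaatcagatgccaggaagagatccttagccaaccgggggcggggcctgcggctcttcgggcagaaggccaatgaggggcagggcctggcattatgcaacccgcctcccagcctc
Cry1: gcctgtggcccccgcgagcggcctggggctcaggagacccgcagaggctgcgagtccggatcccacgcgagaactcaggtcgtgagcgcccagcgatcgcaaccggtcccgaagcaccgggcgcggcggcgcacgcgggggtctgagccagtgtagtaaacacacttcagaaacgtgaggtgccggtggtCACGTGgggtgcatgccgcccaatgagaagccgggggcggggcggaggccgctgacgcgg
Nr1d2: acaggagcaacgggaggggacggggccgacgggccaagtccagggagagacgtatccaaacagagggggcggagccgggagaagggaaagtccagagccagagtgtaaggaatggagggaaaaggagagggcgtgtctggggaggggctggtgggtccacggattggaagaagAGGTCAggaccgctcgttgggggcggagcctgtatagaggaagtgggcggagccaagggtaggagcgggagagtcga
The Per3 window (chr4:151044666-151044915, minus strand) held the D-box at 205 and 158 bases before the start. In the Per1 window (chr11:69098699-69098948, plus strand) the E-box stood at 166 bases and the Rev-erb core, on the opposite strand as TGACCT, at 137 bases before the start. Cry1 (chr10:85185055-85185304, minus strand) held the E-box at 60 bases, and Nr1d2 (chr14:18239107-18239356, minus strand) the Rev-erb core at 77 bases. The only other match in the windows of the 10 genes was a Rev-erb core in 1 of the 3 Clock windows, so that none of the windows of Arntl, Npas2, Nr1d1, and Dbp held any of these letters.

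The values are the authors' normalized signal, close to CPM (reads scaled to a common library size). Library depth ran from 2.73 to 10.3 M (1e6) assigned reads in the genotype experiment (median 6.52 M) and from 19.0 to 38.9 M in the CsA experiment (median 22.8 M). The smooth muscle markers (Acta2, Myh11, Tagln, Cnn1, and Smtn) were high in every library. Ppp3r1, the gene of calcineurin B1, overlapped between the genotypes at each time, with 48.9 to 83.5 in the untreated libraries labelled SM-Cn-/- and 78.8 and 104 in untreated Cn-Ctl, and limma called no difference in any of the 4 comparisons of the genotypes, so that the RNA gave no check of that label. The study's methods state that aortic tissue was taken for a PCR of the recombined gene, a check not analysed here. They also state that SM-Cn-/- mice in which the deletion could not be shown were removed. In bulk tissue, fewer cells of a type and less RNA per cell cannot be told apart. Each library held 3 aortas, so that the spread is between pools and not between mice.

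Across genes, levels were compared per kilobase of merged exons. In untreated WT, Dbp was the most abundant of the 10 at 150 ± 8.95 (SD, n = 3) per kb, followed by Nr1d1 (92.5 ± 10.6), Nr1d2 (49.0 ± 3.99), Per2 (35.3 ± 3.46), Per1 (25.8 ± 0.647), and Per3 (15.5 ± 2.19). Cry1 (5.63 ± 0.931), Clock (3.80 ± 0.430), and Npas2 (0.722 ± 0.0377) were lower, and Arntl was lowest at 0.108 ± 0.0178 per kb. The partners of the driving arm, Arntl and Npas2, therefore stood at the bottom and the driven genes at the top. The order in untreated Cn-Ctl was the same except that Per3 (20.99 ± 0.469 per kb, n = 2) lay above Per1 (13.03 ± 0.524).

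Arntl, the core activator, was close to its floor in untreated control aortas and was higher after Ang-II. Its signal was 0.364 and 0.821 in the untreated Cn-Ctl libraries, from 2 and 4 reads, and 19.8, 14.3, and 6.66 at 2 h. It was 7.92, 5.23, and 2.35 at 6 h and 19.6 and 10.7 at 24 h. Every Cn-Ctl library under Ang-II was above both untreated ones, and the 6 h libraries lay lowest among the treated, with the highest 6 h value above the lowest at 2 h. The fitted log2 difference was 3.59 ± 0.80 (SE) at 2 h (limma adjusted p = 0.00633) and 3.82 ± 0.88 at 24 h (adjusted p = 0.0115), but 2.27 ± 0.80 at 6 h did not pass (adjusted p = 0.125), although DESeq2 called it (3.34, adjusted p = 0.0232). Because the untreated counts were so low, the ratio of summed reads is given with its 95% exact counting interval, which covers counting error only, and it was 26.7 (12.1 to 73.5) at 2 h, 11.3 (4.96 to 31.6) at 6 h, and 33.8 (15.2 to 93.4) at 24 h. At 2 h the call was lost without untreated replicate 2 (adjusted p = 0.1), and at 24 h it was lost without any 1 of the 4 libraries (adjusted p from 0.0539 without 24 h replicate 3 or untreated replicate 3 to 0.111 without untreated replicate 2).

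Dbp, the output factor, moved the other way in the same libraries. Its signal was 314 and 336 in untreated Cn-Ctl, against 48.2, 77.8, and 60.6 at 2 h, 68.6, 48.5, and 62.8 at 6 h, and 86.3 and 79.3 at 24 h. All 8 treated libraries lay far below both untreated ones. The log2 difference was -2.40 ± 0.39 at 2 h (limma adjusted p = 0.000266), -2.44 ± 0.39 at 6 h (adjusted p = 0.000519), and -1.97 ± 0.42 at 24 h (adjusted p = 0.00731), a 5.29-, 5.44-, and 3.91-fold lower level. The 24 h call was lost without 24 h replicate 3, untreated replicate 2, or untreated replicate 3 (adjusted p = 0.0843, 0.0607, and 0.07).

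Per3, a Period gene with little known role in keeping the loop running, fell with Dbp in Cn-Ctl. It was 205 and 198 untreated, 22.8, 34.0, and 43.4 at 2 h, 85.8, 76.4, and 72.3 at 6 h, and 38.5 and 28.1 at 24 h. The groups at 2 and 24 h lay lowest and the 6 h group stood between them and the untreated libraries. The log2 difference was -2.62 ± 0.35 at 2 h (limma adjusted p = 3.24e-05), -1.37 ± 0.35 at 6 h (adjusted p = 0.0291), and -2.60 ± 0.39 at 24 h (adjusted p = 0.000459). At 6 h the call was lost without 6 h replicate 2 or 3 or without either untreated library (adjusted p = 0.067, 0.0802, 0.199, and 0.187).

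In the remaining Cn-Ctl values, Per2 and Nr1d2, both repressors, fell at 24 h. Per2 was 224 and 241 untreated and 101 and 116 at 24 h (log2 difference -1.10 ± 0.29, limma adjusted p = 0.0252), after values of 162 to 219 at 2 h that overlapped neither group. Nr1d2 was 283 and 206 untreated and 102 and 110 at 24 h (-1.19 ± 0.28, adjusted p = 0.0122), and it was also lower at 24 h than at 2 h, where it was 155, 199, and 231 (-0.86 ± 0.25, adjusted p = 0.038). The Per2 call was lost without any 1 of its 4 libraries (adjusted p from 0.0907 without 24 h replicate 2 to 0.164 without untreated replicate 3), that of Nr1d2 against the untreated group without 24 h replicate 3 or untreated replicate 2 (0.0789 and 0.171), and that of Nr1d2 between the times without either 24 h library or 2 h replicate 2 or 3 (0.12, 0.186, 0.0944, and 0.123). Per1, the Period gene that responds fastest to outside signals, was 71.3 and 75.5 untreated, 79.9, 122, and 95 at 2 h, and 100, 98.6, and 163 at 6 h, so that all treated libraries at these times were higher, but neither difference passed (0.41 ± 0.27, adjusted p = 0.458, and 0.67 ± 0.27, adjusted p = 0.19).

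Counted over the 10 genes, 3 were called at 2 h (Arntl higher, Per3 and Dbp lower), 2 at 6 h (Per3 and Dbp lower), and 5 at 24 h (Arntl higher, Per2, Per3, Nr1d2, and Dbp lower). The background was 6.23%, 3.97%, and 5.62% of all 14424 protein-coding genes called in either direction. Between 24 h and 2 h, 1 of the 10 was called (Nr1d2), against 7.37% of all genes. Medians of the log2 differences over the 10 genes were -0.28, -0.265, and -0.588 at 2, 6, and 24 h, where those over all genes were 0.0105, -0.00336, and -0.0167. Summed macrophage markers were 109 and 124 at 24 h against 35 and 49.6 untreated, with 1 of 5 called (higher), and their part in these differences was not tested.

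**Figure D1:**
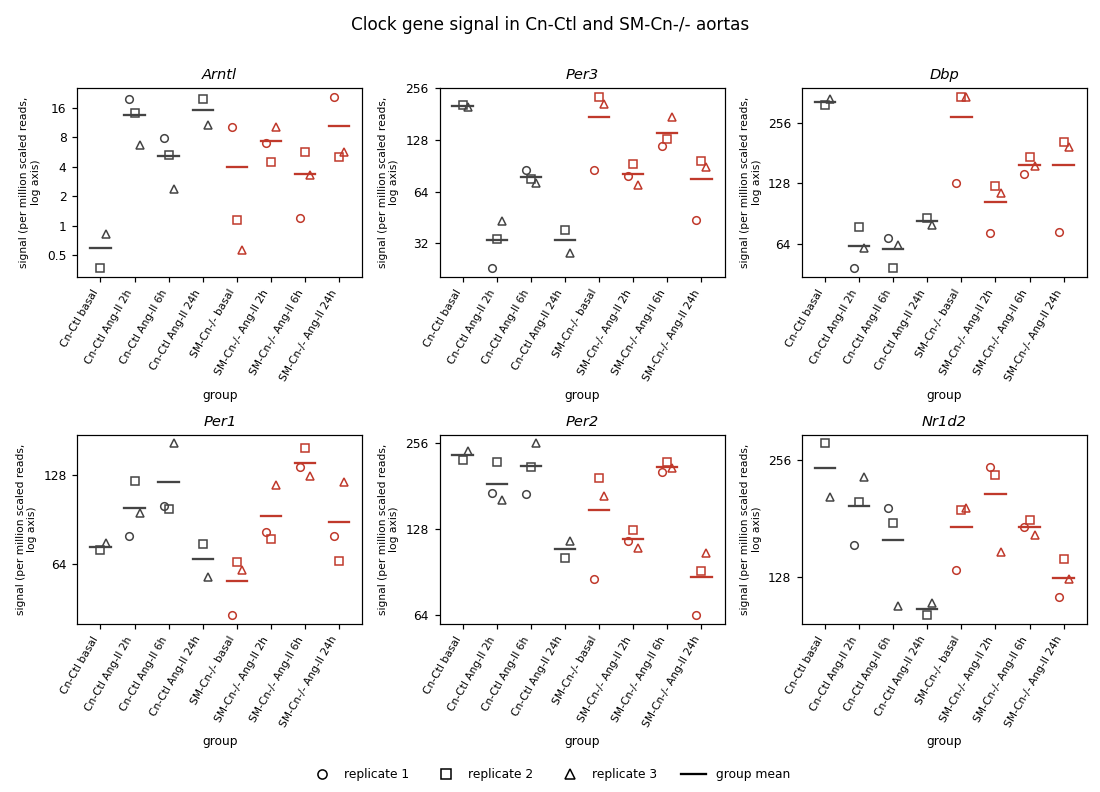
Signal per library (points, log axis, close to CPM) of 6 clock genes in the 8 groups of the genotype experiment, with the group mean as a bar and the point shape giving the replicate number. Untreated Cn-Ctl libraries were low for Arntl (0.364 and 0.821) and high for Per3 and Dbp, and untreated SM-Cn-/- replicate 1 lay apart from replicates 2 and 3.

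The untreated libraries labelled SM-Cn-/- did not form 1 level. Replicate 1 had 10.2 for Arntl, 129 for Dbp, 85.2 for Per3, and 85.5 for Per2, where replicates 2 and 3 had 1.15 and 0.561, 344 and 346, 230 and 208, and 194 and 167. For Arntl, Dbp, and Per3, replicates 2 and 3 lay at or near the untreated Cn-Ctl values, and replicate 1 lay within the range of libraries under Ang-II. The median SD of log2 signal over the 10 genes was 0.635 in this group, against 0.32 over all genes, and 0.608 against 0.272 in the 24 h group with the same label, where replicate 1 (Arntl 20.9, Dbp 72.9) again stood apart from replicates 2 and 3 (Arntl 5.02 and 5.66, Dbp 206 and 193). Replicate 1 had the most assigned reads of the untreated group (6.47 M against 3.60 and 4.17 M), and the 10 glucocorticoid-response genes described further on summed to between 699 and 869 over the 3 libraries. Summed adipose markers ran from 177 to 1043, with the highest value in replicate 1. The part of these in the difference was not tested. In untreated Cn-Ctl, with 2 libraries, the median SD over the 10 genes was 0.0994, against 0.213 over all genes. The authors had left out an untreated Cn-Ctl library that stood apart in a principal component analysis, whereas all 3 untreated SM-Cn-/- libraries were kept.

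Under Ang-II, the libraries labelled SM-Cn-/- had Dbp at 72.4, 124, and 114 at 2 h, 143, 173, and 156 at 6 h, and 72.9, 206, and 193 at 24 h. All of those at 2 h were below the lowest untreated value of 129, whereas at 6 and 24 h the groups overlapped with the untreated one. The log2 difference at 2 h was -1.29 ± 0.35 (limma adjusted p = 0.079), and at 6 and 24 h it was -0.66 ± 0.35 and -0.80 ± 0.35 (adjusted p = 0.354 and 0.365). Without untreated replicate 1 it was -1.77 at 2 h, and it then passed the test (adjusted p under the threshold of 0.05), while -1.13 at 6 h and -1.27 at 24 h did not.

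Arntl was 7.03, 4.53, and 10.3 at 2 h, 1.19, 5.66, and 3.30 at 6 h, and 20.9, 5.02, and 5.66 at 24 h in these mice. All libraries at 2 and 24 h were above untreated replicates 2 and 3 and most were below untreated replicate 1, so that the groups overlapped. The log2 difference of 1.48 ± 0.71 at 2 h and of 1.76 ± 0.71 at 24 h did not pass (limma adjusted p = 0.386 and 0.317), nor did 2.49 and 2.77 without untreated replicate 1. Per3 was 79.2, 93.4, and 70.2 at 2 h and 43.6, 96.1, and 88.8 at 24 h, which gave -0.99 ± 0.32 (adjusted p = 0.157) and -1.14 ± 0.32 (adjusted p = 0.103). Without untreated replicate 1 both passed, at -1.44 and -1.60. At 24 h Per2 (-1.08) passed with it, but with 24 h replicate 1 left out too, none of the 10 genes passed.

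Per1 was the 1 clock gene called by limma in the libraries labelled SM-Cn-/-, at 6 h, where DESeq2 called Cry1 as well (1.40, adjusted p = 0.0235). It was 43.1, 64.9, and 61.2 untreated and 136, 158, and 127 at 6 h, with no overlap (log2 difference 1.32 ± 0.24, limma adjusted p = 0.00449), and it stayed called without any 1 of the 6 libraries (1.14 to 1.44). At 2 h its values of 82.1, 77.9, and 118 were also above all untreated ones, but 0.71 ± 0.24 did not pass (adjusted p = 0.184), and at 24 h 0.62 ± 0.24 did not pass either (adjusted p = 0.279). Cry1, the repressor partner of the Per proteins, was 6.35, 15.2, and 7.30 untreated and 27.3, 17.6, and 29.7 at 6 h (1.39 ± 0.40, adjusted p = 0.0634) and then 2.95, 7.34, and 1.52 at 24 h (-1.31 ± 0.40, adjusted p = 0.142). The 6 h difference passed without untreated replicate 2 (1.76, adjusted p = 0.0288). Nr1d1 at 24 h was 273, 348, and 245 against 131, 142, and 191 untreated, with no overlap, and missed the threshold (0.90 ± 0.23, adjusted p = 0.0723).

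Of the 10 genes, limma thus called 0 at 2 h (background 1.13% of all genes), 1 at 6 h (2.34%), and 0 at 24 h (0.79%). Of the genes not called, 3 at 2 h and 7 at 24 h had an unadjusted p under 0.05, where 13% and 11.5% of all genes did. edgeR called 1 at 2 h (Dbp) and 0 at 24 h, and DESeq2 2 at 2 h (Per3 and Dbp) and 3 at 24 h (Per2, Per3, and Nr1d1). The shares of all genes called by edgeR and DESeq2 are not given here. Between 24 h and 2 h, limma and edgeR called 0 of the 10 and DESeq2 3, with 3 at an unadjusted p under 0.05 (20% of all genes), and 3.65% of all genes were called.

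The genotypes were compared at each time. Untreated, limma, edgeR, and DESeq2 called 0 of the 10 genes, with 2 at an unadjusted p under 0.05 (5.25% of all genes), and limma called 0.0139% of all genes. The log2 difference, SM-Cn-/- minus Cn-Ctl, was 1.31 ± 0.80 for Arntl (95% interval -0.343 to 2.97), -0.39 ± 0.39 for Dbp (-1.19 to 0.417), and -0.34 ± 0.35 for Per3 (-1.07 to 0.4). Those of Dbp and Per3 changed sign, to 0.08 and 0.12, without untreated SM-Cn-/- replicate 1. Cry1 and Per2 had the unadjusted p under 0.05, both lower in the libraries labelled SM-Cn-/- (-1.18 ± 0.44 and -0.72 ± 0.26, limma adjusted p = 0.768 for both).

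Under Ang-II, 1 clock gene differed between the genotypes at 2 h and another at 6 h. At 2 h Per3 differed, with 79.2, 93.4, and 70.2 against 22.8, 34.0, and 43.4 (log2 difference 1.30 ± 0.32, limma adjusted p = 0.0198), and at 6 h Dbp differed, with 143, 173, and 156 against 68.6, 48.5, and 62.8 (1.40 ± 0.35, adjusted p = 0.0358). Neither pair of groups overlapped. Summed endothelial markers did not overlap at 2 h either, at 637 to 825 in SM-Cn-/- and 282 to 520 in Cn-Ctl, with 1 of 5 called (higher), nor at 24 h, at 1039 to 1118 against 432 to 448, with 2 of 5 called (higher). Summed smooth muscle markers at 6 h were 22350 to 28000 against 31230 to 32960, with 0 of 5 called by limma. The part of these in the clock gene differences was not tested. Each was the 1 gene called of the 10 at its time, where 3.7% of all genes were called at 2 h and 1.98% at 6 h. The Per3 call was lost without replicate 1 or 2 of either group (adjusted p from 0.063 without Cn-Ctl replicate 2 to 0.164 without Cn-Ctl replicate 1), and the Dbp call without SM-Cn-/- replicate 2 or 3 or any 1 Cn-Ctl library (0.0518 without Cn-Ctl replicate 1 to 0.157 without Cn-Ctl replicate 2). The values for the other gene at the other time were 0.72 ± 0.35 for Dbp at 2 h (adjusted p = 0.343) and 0.83 ± 0.32 for Per3 at 6 h (adjusted p = 0.212). At 24 h limma and edgeR called 0 of the 10 and DESeq2 2, with 3 at an unadjusted p under 0.05 (17.7% of all genes) and 4.94% of all genes called. Per3 was 1.12 ± 0.35 (adjusted p = 0.0744), Dbp 0.78 ± 0.39 (adjusted p = 0.297), and Cry1 -1.46 ± 0.44 (adjusted p = 0.0609). Without SM-Cn-/- 24 h replicate 1, Per3 was called at 24 h (1.48), and without replicate 2 of that group Cry1 was (-1.98, adjusted p = 0.00969).

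Whether the responses themselves differed was tested as the response of SM-Cn-/- minus that of Cn-Ctl. limma, edgeR, and DESeq2 called 0 of the 10 genes at 2, 6, and 24 h, with 2, 3, and 4 at an unadjusted p under 0.05 (7.97%, 6.05%, and 11% of all genes), and limma called 0.513%, 0.0624%, and 0.513% of all genes. For Dbp the difference was 1.11 ± 0.52, 1.78 ± 0.52, and 1.17 ± 0.55 (limma adjusted p = 0.602, 0.4, and 0.438), and for Per3 1.64 ± 0.48 at 2 h and 1.45 ± 0.50 at 24 h (adjusted p = 0.193 and 0.226), with a 95% interval of 0.177 to 2.15 at 6 h. For Arntl it was -2.11 ± 1.07, -1.91 ± 1.07, and -2.06 ± 1.13, with 95% intervals from -4.34 to 0.109, -4.14 to 0.309, and -4.4 to 0.287, so that both no difference and a much weaker response remained within them. Without untreated SM-Cn-/- replicate 1 the Arntl values were -1.11, -0.91, and -1.05.

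In the CsA experiment, which was sequenced more deeply, untreated WT again had the least Arntl and the most Dbp of all groups. Arntl was 0.966, 0.768, and 0.71 untreated (17 to 24 reads), 5.88, 5.46, and 6.40 at 2 h, and 13.6, 8.46, and 5.82 at 24 h. Dbp was 474, 421, and 449 untreated, 124, 163, and 138 at 2 h, and 106, 125, and 141 at 24 h. All treated WT libraries stood apart from all untreated ones for both genes, and the 2 h and 24 h groups overlapped each other. The log2 difference of Arntl was 2.29 ± 0.39 at 2 h (limma adjusted p = 0.000648) and 2.83 ± 0.39 at 24 h (adjusted p = 5.75e-05), and that of Dbp was -1.67 ± 0.18 (adjusted p = 8.65e-06) and -1.86 ± 0.18 (adjusted p = 2.42e-06). Both genes kept their calls without any 1 library of these groups.

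Per3 in WT followed Dbp, from 168, 153, and 127 untreated to 46.7, 52.9, and 40.1 at 2 h and 36.2, 35.4, and 61.6 at 24 h (log2 difference -1.67 ± 0.18 and -1.78 ± 0.18, limma adjusted p = 8.19e-06 and 3.3e-06). Per1 rose at 2 h, from 142, 146, and 149 to 274, 220, and 274 (0.81 ± 0.10, adjusted p = 4.93e-05), and was 128, 150, and 139 at 24 h, lower than at 2 h (-0.88 ± 0.10, adjusted p = 1.59e-05). The 24 h values straddled the untreated ones. Per2 and Nr1d2 overlapped with the untreated libraries at 2 h and fell by 24 h. Per2 went from 222, 214, and 184 untreated to 87.9, 89.7, and 129 (-1.03 ± 0.20, adjusted p = 0.000736), and Nr1d2 from 282, 272, and 241 to 153, 136, and 130 (-0.92 ± 0.14, adjusted p = 0.000131). Both were also lower at 24 h than at 2 h (-0.94 ± 0.20 and -0.83 ± 0.14, adjusted p = 0.00143 and 0.000326).

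Smaller changes were called in WT for Clock, the partner of Arntl, and for Nr1d1. Clock was 47.4, 50.2, and 58.7 untreated, 68.4, 61.2, and 70.1 at 2 h, and 84.0, 67.6, and 67.4 at 24 h (log2 difference 0.35 ± 0.12, limma adjusted p = 0.0479, and 0.48 ± 0.12, adjusted p = 0.00594). Nr1d1 was 297, 248, and 309 untreated and 241, 224, and 182 at 24 h (-0.40 ± 0.14, adjusted p = 0.0358). The Clock call at 2 h was lost without untreated replicate 1 or 2 or 2 h replicate 1 or 3 (adjusted p = 0.179, 0.133, 0.13, and 0.152), with edgeR (0.0554), and with quantile normalization (0.205), and the Nr1d1 call without untreated replicate 1 or 3 or 24 h replicate 2 or 3 (0.103, 0.127, 0.0619, and 0.162). In all, 5 of the 10 genes were called at 2 h (3 higher, 2 lower) and 7 at 24 h (2 higher, 5 lower), where 21.4% and 35% of all 13741 protein-coding genes were called. Between 24 h and 2 h, 3 were called, Per1, Per2, and Nr1d2, all lower, against 36.2% of all genes. limma did not call Npas2 or Cry1 in any of the 3 comparisons. DESeq2 called 8 at 24 h, with Npas2 added (0.94, adjusted p = 0.044), and edgeR called 4 at 2 h. Macrophage markers moved at 24 h as well, with 5 of 5 higher than in untreated WT and a summed signal of 132 to 190 against 51.2 to 70.3, and their part in the clock gene differences was not tested.

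**Figure D2:**
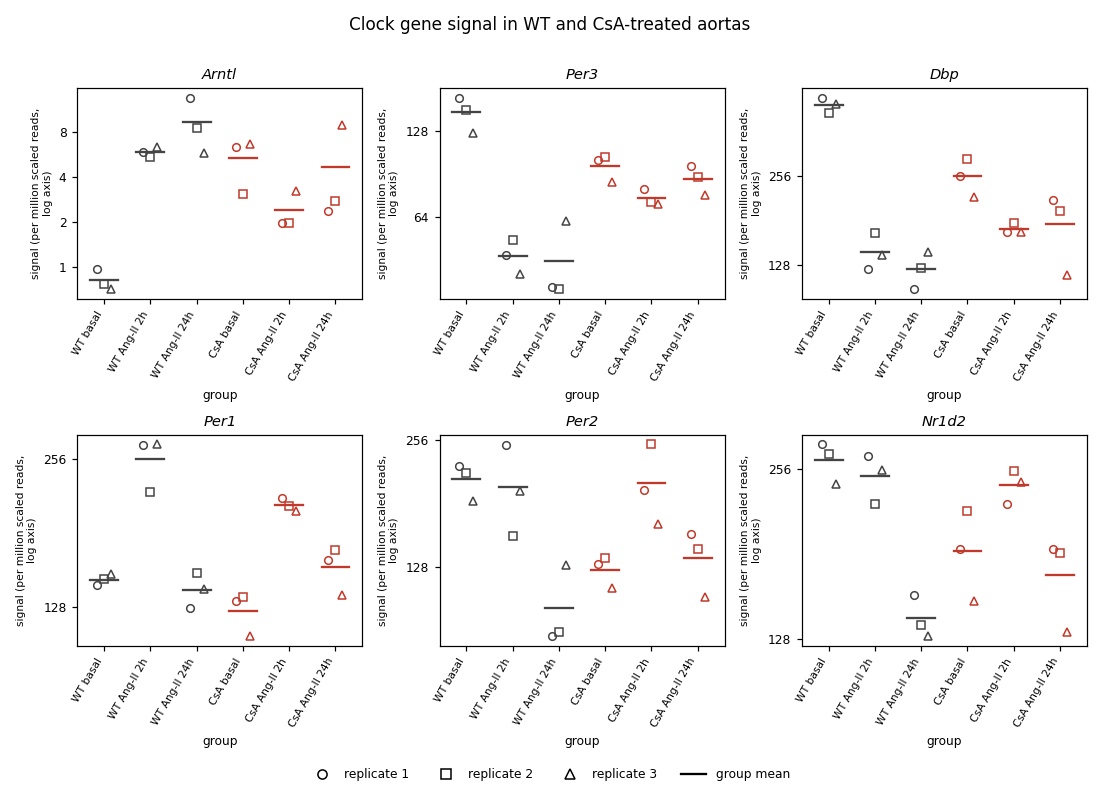
Signal per library (points, log axis, close to CPM) of 6 clock genes in the 6 groups of the CsA experiment, with the group mean as a bar. Untreated WT libraries lay lowest for Arntl (0.71 to 0.966) and highest for Dbp (421 to 474), and untreated CsA libraries lay between these and the WT libraries under Ang-II for Dbp.

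CsA alone, before any Ang-II, went with a different level of 6 of the 10 genes. Arntl was 6.31, 3.08, and 6.64 in untreated CsA libraries against 0.966, 0.768, and 0.71 in WT (log2 difference, CsA minus WT, 2.09 ± 0.39, limma adjusted p = 0.00222). Dbp was 256, 293, and 218 against 474, 421, and 449 (-0.82 ± 0.18, adjusted p = 0.00459). Neither gene overlapped between the groups, and both calls held without any 1 library. Per2 (-0.71 ± 0.20), Per3 (-0.62 ± 0.18), Nr1d1 (-0.49 ± 0.14), and Nr1d2 (-0.55 ± 0.14) were lower too, with adjusted p = 0.0155, 0.0192, 0.0182, and 0.0116. In this comparison 25.2% of all genes were called. CsA mice carried a pump and WT mice did not, so that the drug and the pump cannot be told apart.

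The number of genes called in that comparison fell to 3 without untreated WT replicate 1 and to 2 without untreated CsA replicate 3. Without these libraries Per2 had an adjusted p of 0.0507 and 0.0622, Per3 of 0.0731 and 0.0827, and Nr1d1 of 0.0562 and 0.0557, and Nr1d2 had 0.0654 without the latter. Per2 and Per3 also lost their calls without untreated WT replicate 2 (0.0518 and 0.0598), and Nr1d1 without untreated WT replicate 3 or CsA replicate 2 (0.0778 and 0.0566). Cell-type markers moved in the same comparison. Of 5 markers in each list, 5 of smooth muscle were lower, and 5 of endothelium, 5 of macrophages, and 4 of adipose tissue were higher in untreated CsA than in untreated WT. The summed signal was 15670 to 17720 against 24800 to 34010 for smooth muscle, 905 to 1044 against 347 to 587 for endothelium, 106 to 139 against 51.2 to 70.3 for macrophages, and 919 to 1635 against 182 to 367 for adipose tissue. Their part in the clock gene differences was not tested.

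Under Ang-II, the CsA libraries did not show the rise of Arntl. It was 1.97, 1.98, and 3.23 at 2 h and 2.36, 2.75, and 8.92 at 24 h, after 3.08 to 6.64 untreated. The 2 h values reached from below the untreated range into it, and 24 h replicate 3 stood apart from replicates 1 and 2. The log2 difference from untreated CsA was -0.98 ± 0.39 at 2 h (limma adjusted p = 0.0896) and -0.33 ± 0.39 at 24 h (adjusted p = 0.628, 95% interval -1.17 to 0.506). Dbp fell at 2 h, to 165, 178, and 166 (-0.58 ± 0.18, adjusted p = 0.0312), with no overlap with the untreated libraries, and at 24 h it was 213, 195, and 118 (-0.58 ± 0.18, adjusted p = 0.0554). The 2 h call was lost without untreated replicate 1 or 2 or any 1 of the 2 h libraries (adjusted p from 0.0608 to 0.111).

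Per1 rose at 2 h in CsA, from 131, 134, and 112 to 214, 205, and 201 (log2 difference 0.72 ± 0.10, limma adjusted p = 0.000293), and Per2 rose with it, from 130, 134, and 114 to 195, 250, and 162 (0.66 ± 0.20, adjusted p = 0.0257). In both genes all 2 h libraries were above all untreated ones. The Per2 call was lost without untreated replicate 1 or 3 or 2 h replicate 2 (adjusted p = 0.0534, 0.0915, and 0.133) and with quantile normalization (0.09). By 24 h Per1 was 159, 167, and 136, lower than at 2 h (-0.43 ± 0.10, adjusted p = 0.0103), as was Nr1d2, with 185, 182, and 132 against 221, 254, and 242 (-0.54 ± 0.14, adjusted p = 0.0164). The Nr1d2 call was lost without 2 h replicate 2 (0.0601) or 24 h replicate 3 (0.0748), and both calls with quantile normalization (0.0803 for Per1 and 0.0745 for Nr1d2). Of the 10 genes, 3 were called at 2 h (Per1, Per2, and Dbp) with a background of 20.1%, and 2 between 24 h and 2 h with a background of 18%. At 24 h against untreated, limma and edgeR called 0 and DESeq2 2, with 2 at an unadjusted p under 0.05 (26.2% of all genes) and 8.97% of all genes called. Without 24 h replicate 3, Per1 was called at 24 h (0.38).

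**Figure D3:**
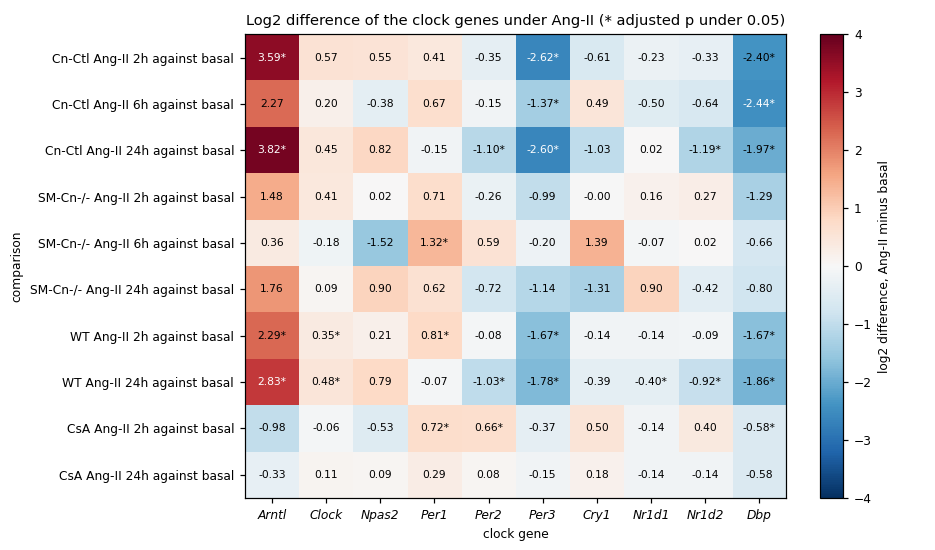
Log2 difference (colour and number) of the 10 clock genes, in columns, for the 10 comparisons of Ang-II with the untreated group, in rows, with a star where the adjusted p was under 0.05. Per3 and Dbp were negative in every row, and none of Arntl, Per3, and Dbp passed in the SM-Cn-/- rows. Arntl was positive in every Cn-Ctl, SM-Cn-/-, and WT row, whereas it was -0.98 and -0.33 in the CsA rows. For SM-Cn-/- at 6 h the ratio of summed Arntl reads to untreated was 0.65, the opposite direction.

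The difference between the responses of CsA and WT was tested directly, and the 2 tests at 2 and 24 h share the untreated libraries. At 2 h 1 of the 10 genes was called, Arntl, whose response was lower by 3.26 ± 0.56 on the log2 scale in CsA (limma adjusted p = 0.04), where 0.146% of all genes were called. Its call at 2 h was lost without any 1 of the 12 libraries other than untreated CsA replicate 1 (adjusted p from 0.0515 to 0.146), while the difference stayed between -3.59 and -3.09. Per3 (1.30 ± 0.25, adjusted p = 0.0604) and Dbp (1.09 ± 0.25, adjusted p = 0.0962) did not pass at 2 h. At 24 h 5 were called against a background of 9.42%. These were Arntl (-3.16 ± 0.56, adjusted p = 0.00557), Per3 (1.62 ± 0.25, adjusted p = 0.00336), Dbp (1.28 ± 0.25, adjusted p = 0.00863), Per2 (1.11 ± 0.28, adjusted p = 0.0212), and Nr1d2 (0.78 ± 0.20, adjusted p = 0.0248). The calls of Arntl, Per3, and Dbp at 24 h held without any 1 of the 12 libraries. That of Per2 was lost without untreated WT replicate 2, WT 24 h replicate 2, or CsA 24 h replicate 1 or 2 (adjusted p from 0.0535 to 0.0632), and that of Nr1d2 without any of these, untreated WT replicate 1, or untreated CsA replicate 3 (0.0517 to 0.0746).

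The untreated CsA and WT groups already differed, as given above. Set directly against WT at the same time, 0 of the 10 genes in CsA libraries were called at 2 h by limma and edgeR and 2 by DESeq2 (6 at an unadjusted p under 0.05, against 18.5% of all genes, and background 1.33% of all genes called). Arntl was 1.97, 1.98, and 3.23 against 5.88, 5.46, and 6.40 (log2 difference -1.17 ± 0.39, limma adjusted p = 0.134), with no overlap. At 24 h 1 was called, Per3, with 96.2, 88.5, and 76.4 against 36.2, 35.4, and 61.6 (1.00 ± 0.18, adjusted p = 0.0066, background 5.57%). That call was lost without WT replicate 2 (adjusted p = 0.056). Arntl at 24 h gave -1.06 ± 0.39 (adjusted p = 0.117), and without CsA replicate 3 Arntl (-1.61) and Dbp (0.72) were called as well.

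**Figure D4:**
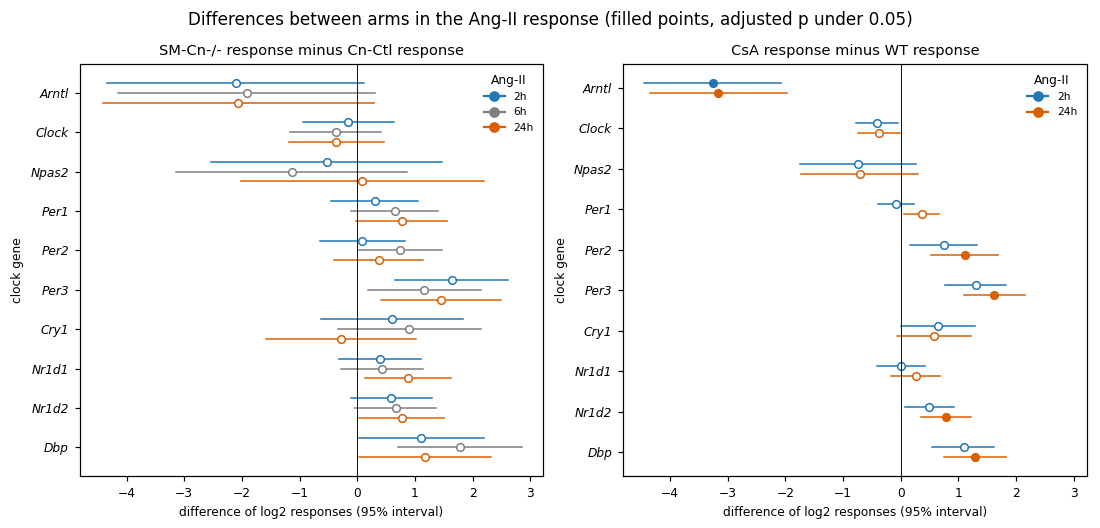
Difference between the log2 responses to Ang-II of SM-Cn-/- and Cn-Ctl (left) and of CsA and WT (right) for each clock gene, with 95% intervals as bars and filled points where the adjusted p was under 0.05. The intervals on the left are wide and no point is filled, whereas Arntl lies at -3.26 and -3.16 on the right.

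Over libraries, Arntl was low where Dbp and Per3 were high. Across the 22 libraries of the genotype experiment, Pearson's r of log2 signal was -0.736 between Arntl and Dbp, -0.858 between Arntl and Per3, and 0.828 between Dbp and Per3, and across the 18 of the CsA experiment it was -0.822, -0.795, and 0.9. These are descriptions, since the libraries share their groups, treatments, and scaling. Per2 went with Cry1 (0.785 and 0.696) and, in the CsA experiment, with Nr1d2 (0.884 against 0.465 in the other). Arntl and Per1 had r near 0 (-0.0049 and -0.0498). By group mean, the order of Arntl in the genotype experiment ran from Cn-Ctl 24 h (15.2) and 2 h (13.6) through SM-Cn-/- 24 h (10.5) and 2 h (7.27), Cn-Ctl 6 h (5.17), and SM-Cn-/- untreated (3.98) and 6 h (3.38) to untreated Cn-Ctl (0.593), and only the last step separated neighbours whose libraries did not overlap. In the CsA experiment it ran from WT 24 h (9.30) and 2 h (5.91) through CsA untreated (5.34), 24 h (4.68), and 2 h (2.39) to untreated WT (0.814), again with only the last step free of overlap.

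**Figure D5:**
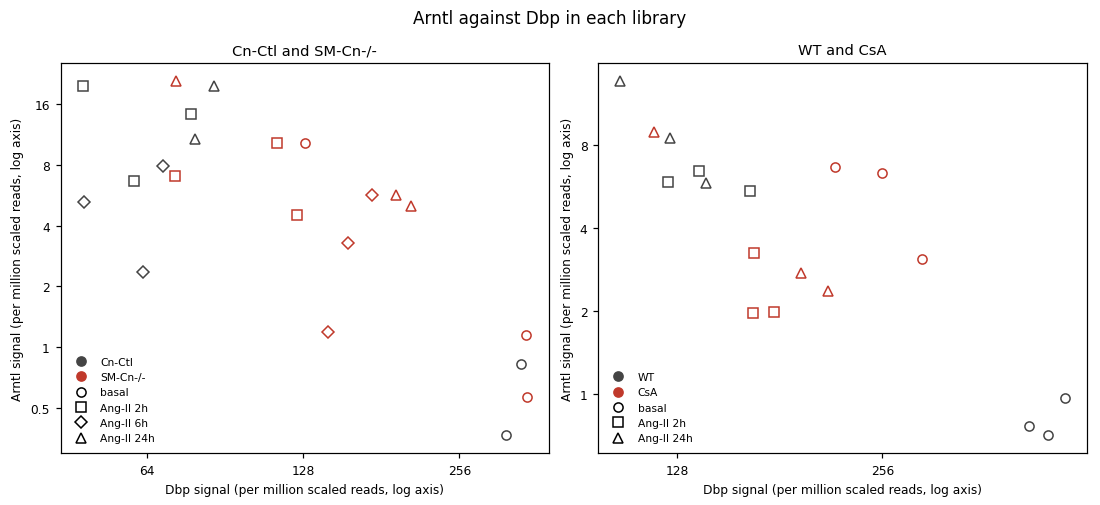
Arntl signal against Dbp signal in each library (both log axes, close to CPM), with colour for the arm and shape for the time under Ang-II. Untreated Cn-Ctl and WT libraries lie at low Arntl and high Dbp, and 2 of the 3 untreated SM-Cn-/- libraries lie with them.

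The genes with the pattern most like that of 3 of the members were sought among 10333 genes, by the smaller of the correlations in the 2 experiments. Dbp was most like Tcap (0.846), Tef (0.818), which encodes a close relative of Dbp that binds the same D-box, Guf1 (0.816), Syt15 (0.808), and Abhd14b (0.806). Among the genes most like Per1 were Ip6k2 (0.789), Zyx (0.788), Myom1 (0.782), and Supt5 (0.78). Arntl was most like Litaf (0.786), Cdkn1a (0.708), Kremen1 (0.706), Ap2a2 (0.686), and Psmb2 (0.675).

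Another 18 genes of the clock and its output were read from the same tests. In Cn-Ctl, 5 were called at 2 h (3 higher, 2 lower), 3 at 6 h (1 higher, 2 lower), and 5 at 24 h (all lower), where 6.23%, 3.97%, and 5.62% of all genes were called. In WT, 8 were called at 2 h (5 higher, 3 lower) and 10 at 24 h (2 higher, 8 lower), where 21.4% and 35% of all genes were called. Nfil3, a repressor that competes with Dbp for the D-box, rose most at 2 h, from a mean of 8.73 to 157 in Cn-Ctl (log2 difference 4.42 ± 0.65, limma adjusted p = 9.38e-05) and from 8.45 to 105 in WT (3.56 ± 0.26, adjusted p = 1.85e-07). Hlf and Tef, the relatives of Dbp, fell with it. Hlf went from 104 to 28.6 at 2 h and 14.5 at 24 h in Cn-Ctl (adjusted p = 0.00728 and 0.00126), and Tef from 467 to 196 and 179 (adjusted p = 0.00181 and 0.00371). At 24 h Bhlhe41, Ciart, and Wee1 were lower as well in both control arms. Bhlhe41 and Ciart encode repressors of the Arntl pair, and Wee1 a cell-cycle kinase known as a clock target.

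In the libraries labelled SM-Cn-/-, limma and edgeR called 0 of these 18 at 2, 6, and 24 h, and DESeq2 called 0, 0, and 2. At 2 and 24 h 6 and 6 had an unadjusted p under 0.05, where 13% and 11.5% of all genes did. At 6 h 4 did, and the share of all genes at that threshold is not given here. Nfil3 at 2 h was 30.1 against 9.95 untreated (2.17 ± 0.58, limma adjusted p = 0.0773), and it was lower than in Cn-Ctl at 2 h (-2.46, adjusted p = 0.0154), as were Rora and Cry2 (-0.80 and -0.65, adjusted p = 0.0304 and 0.0433). In CsA, 6 were called at 2 h, all higher (Nfil3, Rora, Csnk1d, and Wee1 among them, background 20.1% of all genes). At 24 h limma, edgeR, and DESeq2 called 0, with 2 at an unadjusted p under 0.05, where 26.2% of all genes were. Untreated CsA differed from untreated WT in 7 of the 18 (1 higher, 6 lower, Hlf, Tef, Bhlhe41, and Ciart among them, background 25.2%). The 24 h response differed between CsA and WT in 6, Hlf, Tef, Bhlhe41, Wee1, Ciart, and Cry2, with a response higher in CsA by 0.77 to 1.53 on the log2 scale (background 9.42%). In the same test 5 of 5 macrophage markers and 3 of 5 endothelial markers had a lower response in CsA, and their part in the clock gene differences was not tested.

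Genes that respond to signals that can act on Per1 moved in several of the same comparisons. Of 10 glucocorticoid-response genes, Fkbp5 and Tsc22d3 among them, 8, 7, and 4 were called at 2, 6, and 24 h in Cn-Ctl, 6, 8, and 4 at those times in SM-Cn-/-, 10 and 7 at 2 and 24 h in WT, and 8 and 2 in CsA, and all of these were higher. The shares of all genes called in these comparisons, in the same order, were 6.23%, 3.97%, and 5.62% for Cn-Ctl, 1.13%, 2.34%, and 0.79% for SM-Cn-/-, 21.4% and 35% for WT, and 20.1% and 8.97% for CsA. In untreated CsA against untreated WT, 7 of the 10 were higher (25.2% of all genes called). Of 8 immediate early genes such as Fos and Nr4a1, which calcium and cAMP signals can induce, 6 and 5 were higher at 2 and 6 h in Cn-Ctl, 8 at 2 h in WT, and 7 at 2 h in CsA. Their summed signal at 2 h did not overlap between WT and CsA, at 2098 to 2430 and 493 to 1004. Untreated, it was 190 to 413 in WT and 165 to 262 in CsA. At 24 h 3 of the 8 genes were higher in WT, and limma called 0 in Cn-Ctl and 0 in CsA (0 and 0 by edgeR, 1 and 2 by DESeq2). In CsA 2 had an unadjusted p under 0.05 at 24 h, where 26.2% of all genes did. In Cn-Ctl 3 did, and the share of all genes at that threshold is not given here. In SM-Cn-/- limma called 0 of the 8 at each time, edgeR called 0, and DESeq2 0, 1, and 0. There, 2 and 3 had an unadjusted p under 0.05 at 2 and 24 h, where 13% and 11.5% of all genes did. At 6 h 3 did, and the share of all genes at that threshold is not given here. Per1 was called at 6 h in SM-Cn-/- and at 2 h in WT and CsA, and it was not called against untreated at any time in Cn-Ctl. The signals themselves were not measured, and their part in the clock genes was not tested.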

How the data were processed

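Polyadenylated RNA from pools of 3 aortas was sequenced on a Genome Analyzer IIx. Per the labels, the authors used Bowtie 0.12.7 and RSEM 1.16 with the mouse genome build GRCm38, and they deposited 1 table per experiment of normalized signal, the reads plus 0.5 divided by a scaled library size. All values (100% in each library) returned to whole reads within a tolerance of 0.001. Per the study's methods, the authors left out an untreated Cn-Ctl library that stood apart in a principal component analysis. No strand setting for the counting is given in the sources used here.

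From these tables, log2(signal + 0.5) of the protein-coding genes (14424 for the genotype table, 13741 for the CsA table) was fitted with limma 3.58.1 in R 4.3.3, with 1 model over all groups of a table, an intensity trend, Benjamini-Hochberg adjustment over all genes tested, and a threshold of 0.05. Differences on this scale understate the change of genes with low signal, Arntl above all. The 2 tables were normalized separately and tested apart, in 26 comparisons. edgeR 4.0.16 and DESeq2 1.42.0 on the recovered reads, other pseudocounts, filters, and scalings, a replicate block, and leaving out libraries were alternatives. Shares of all genes are those of the main limma fit, and those of the alternatives are not given here. Intervals on reads are exact and cover counting error only. With 3 libraries against 3, an exact permutation test of a single gene cannot go below 0.1, and with 2 against 3 not below 0.2, so that none is given. Replicate libraries are separate pools, and the limma p-values set differences of group means against the spread between pools. That spread was estimated over all groups of a table and moderated with the intensity trend, not from the compared groups alone.

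The 10 genes, the other gene lists, and the alternatives were chosen with earlier results of these data known. The text names the 10 genes in each comparison, the members of the lists, and for Arntl, Dbp, and Per1 the 5 genes of highest correlation among those with a mean signal of at least 5 in both tables, and a few of these genes are not reported here. Of lists for other cell types, markers of lymphocytes were near 0 or not listed. Those of smooth muscle, endothelium, macrophages, and adipose tissue are given beside some of the comparisons in which they stood apart, and not beside all. Lists for striated muscle, blood, and adventitial fibroblasts were read as well. In untreated CsA and WT, summed striated muscle markers were 186 to 1928 and 67.9 to 478. Blood markers were 106 to 111 and 42.2 to 362 there, and fibroblast markers 1164 to 1302 and 753 to 1330. In untreated SM-Cn-/- and Cn-Ctl, summed smooth muscle markers were 20200 to 23630 and 27740 to 28210, and endothelial markers 542 to 690 and 299 to 411. In CsA and WT at 2 h, smooth muscle markers were 19410 to 25070 and 27470 to 34520, and endothelial markers 749 to 927 and 527 to 589. Their part in the clock gene differences was not tested.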

Additional observations from a re-analysis of the deposited data

Results flagged for a closer look

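The responses to Ang-II differed between CsA and WT, by the test of the difference itself in limma, for 1 clock gene at 2 h and for 5 at 24 h. The difference of the log2 responses, CsA minus WT, was -3.26 for Arntl at 2 h, and at 24 h it was -3.16 for Arntl, 1.11 for Per2, 1.62 for Per3, 0.783 for Nr1d2, and 1.28 for Dbp. Untreated CsA and untreated WT, which enter each of these differences, were themselves apart for all 5 genes, and the pump carried by CsA mice alone cannot be told apart from the drug.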

How the results depend on the processing

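Counts of clock genes called moved by over 1.5 times in 33 of 236 pairings of a comparison with an alternative other than leaving out 1 library. DESeq2 called 2 of the 10 at 2 h, 2 at 6 h, and 3 at 24 h in SM-Cn-/-, 3 between 24 h and 2 h in SM-Cn-/-, 2 between genotypes at 24 h, 2 for CsA at 24 h, 2 for CsA against WT at 2 h, and 3 for the 2 h difference of CsA and WT responses. edgeR called 1 at 2 h in SM-Cn-/-. A pseudocount of 2 gave 2 at 6 h in SM-Cn-/- and 0 for the 2 h difference of CsA and WT responses. A mean of at least 5, which leaves Arntl and Npas2 out of the CsA experiment, gave 1 between 24 h and 2 h in SM-Cn-/-, 1 between genotypes at 24 h, 1 for CsA at 24 h, and 0 for the 2 h difference of responses. Quantile normalization gave 2 at 6 h and 2 between 24 h and 2 h in SM-Cn-/-, 0 between 24 h and 2 h in Cn-Ctl and in CsA, 1 between genotypes at 24 h, 1 for CsA at 24 h, and 0 for the 2 h difference of responses. With the spread estimated from only the groups compared, the count was 0 between 24 h and 2 h in Cn-Ctl and in CsA, 1 in SM-Cn-/-, 0 for CsA against WT at 24 h, and 3 for the 2 h difference of responses. The shares of all genes called under these alternatives are not given here, so that a change in a count cannot be set against them. The causes were not tested.

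Replicate numbers were not used as a pairing in the main fit. Correlations of the deviations from group means ran, for same-numbered libraries, from -0.374 to 0.339 (median 0.0587, 71 pairs) in the genotype experiment and from -0.389 to 0.377 (median -0.0283, 45 pairs) in the CsA experiment. For other-numbered libraries the medians were -0.0419 (140 pairs) and -0.0129 (90 pairs). These values, taken over all genes, cannot show whether same-numbered samples were collected together. With the replicate number as a block, the count was 2 at 2 h and 1 at 24 h in SM-Cn-/-, 2 between 24 h and 2 h in Cn-Ctl and 1 in SM-Cn-/-, 1 between genotypes at 24 h, and 0 for the 2 h difference of CsA and WT responses.

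Leaving out 1 library at a time gave 2 to 3 calls at 2 h, 1 to 2 at 6 h, and 1 to 3 at 24 h in Cn-Ctl, and 0 to 2, 1 to 2, and 0 to 2 in SM-Cn-/-. It gave 0 to 1 between 24 h and 2 h in both genotypes, 0 to 1 between the genotypes at 2, 6, and 24 h each, and 0 for the genotypes untreated and for the differences of their responses. In the CsA experiment it gave 4 to 5 and 6 to 7 in WT at 2 and 24 h, 1 to 4 and 0 to 1 in CsA, 3 between the times in WT and 1 to 3 in CsA, 2 to 6 for CsA against WT untreated, 0 to 2 at 2 h, and 0 to 3 at 24 h. For the difference of responses it gave 0 to 1 at 2 h and 3 to 6 at 24 h. Without untreated SM-Cn-/- replicate 1, the genotype difference before Ang-II turned to 0.117 for Per3 and 0.0847 for Dbp, the upper ends of ranges that began at -0.597 and -0.625. Leaving out both SM-Cn-/- libraries that stood apart was chosen after seeing the data. The lower depth of the genotype experiment and the 2 to 4 Arntl reads in untreated Cn-Ctl limit how closely its Arntl fold can be set.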
